A study of Caenorhabditis elegans with 4 samples.

Results

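The left arm of Caenorhabditis elegans chromosome V was examined as a place where SWD-3 ChIP-seq peaks were called. Its members were chosen by position alone. They are the peaks of the list deposited for the whole series that lie on V with a midpoint at or below 5230000, in coordinates of WormBase build WS220. This span is the first 25% of the chromosome, and it held 564 of the 9630 series peaks (5.86%). The same span held 89 of the 2698 peaks called in ChIP replicate 1 and 121 of the 4580 peaks called in ChIP replicate 2.

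The material was wild-type N2 mixed embryos, males and hermaphrodites together, grown in liquid culture and fixed with formaldehyde. Chromatin was precipitated with SDQ4640, an affinity-purified rabbit polyclonal antibody raised against SWD-3, and each of the 2 ChIP libraries had an input DNA library. All 4 libraries came from the same strain with no treatment, so the design has no contrast between conditions. It is not stated if each replicate had its own embryo preparation. Peak values from input DNA were not analysed here.

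SWD-3 belongs to the WDR5 family of WD40-repeat proteins. WDR5 is a core subunit of the SET1/MLL complexes, which methylate lysine 4 of histone H3, a mark found mainly at the promoters of active genes. The autosomes of C. elegans have gene-dense centres with little meiotic recombination, flanked by arms that recombine more, hold more repeats and carry more histone H3 lysine 9 methylation. On chromosome V the meiotic pairing centre, where homologues first pair and start to synapse, lies towards the right end, so the left arm lacks it. Chromosome V also carries large families of nematode chemoreceptor genes. The peak lists hold positions and scores only, and the genes under these peaks were not analysed here.

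The arm had a series peak density near that of all nuclear chromosomes and fewer replicate peaks than they had. Series peaks occurred at 107.8 per Mb, against 96.0 per Mb over all nuclear chromosomes, 49.3 in the centre of V and 204.0 in its right arm. The left arms of I and X had 104.8 and 106.6 per Mb. Replicate 1 had 17.0 peaks per Mb on the left arm of V, against 26.9 over all nuclear chromosomes and 24.2 in the centre of V. Replicate 2 had 23.1, against 45.7 and 40.8. There were thus 4.66 series peaks for each replicate 2 peak on the arm, 2.10 in the whole lists and 1.21 in the centre of V. This was not particular to the arm. The right arm of V had 16.3 replicate 1 and 22.4 replicate 2 peaks per Mb and a ratio of 9.12. On the left arms of II and III the ratio was 7.64 and 4.41, and on those of I, IV and X it was 2.12, 2.95 and 2.59. In covered length, series peaks took up 338546 bp or 6.47% of the arm, against 6.87% of all nuclear chromosomes. Replicate 1 peaks took up 43707 bp (0.836%, against 1.42%) and replicate 2 peaks 77904 bp (1.49%, against 2.80%). No sequencing depth comes with the lists, so a missing peak says only that none was called, and the 2 ChIP libraries allow no test between chromosome spans.

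Series peaks of the arm were mostly narrow and mostly low in score. Their median width was 296 bp (quartiles 204.75 and 532.25), with a range from 146 to 13776 bp. The median for the whole list was 319 bp. The deposited score has no stated scale, so each peak was placed by its percentile among all 9630 series scores. The median peak of the arm stood at percentile 37.5 (quartiles 16.2 and 61.6). The score itself ranged from 1.37 to 117.85 on the arm, with a median of 6.12 against 8.12 in the whole list. When each of the 6 nuclear chromosomes was divided into a left arm, a centre and a right arm, the left arm of V had the lowest median percentile of the 18 spans. The left arm of X was next at 38.7, and the centre of V stood at 58.8. Of the arm's peaks, 204 (36.2%) fell in the lowest-scoring 25% of the list and 30 (5.32%) in the highest-scoring 10%.

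Overlap with the replicate lists was counted at 1 bp or more. On the arm 45 series peaks (7.98%, 95% Wilson interval 6.02 to 10.5) overlapped a replicate 1 peak, where 18.6% of all series peaks did. A replicate 2 peak was met by 116 (20.6%, interval 17.4 to 24.1), against 41.9% of the list. Peaks of both replicates were met by 31 (5.50%, interval 3.90 to 7.70), against 15.2%. Replicate 1 alone was met by 14 (2.48%), against 3.4%, and replicate 2 alone by 85 (15.1%), against 26.7%. The remaining 434 (77.0%, interval 73.3 to 80.2) met neither, against 54.7%. All these intervals cover counting error only. The share with no replicate peak was the fourth highest of the 18 spans, after the right arm of V (85.0%), the left arm of II (83.4%) and the right arm of I (79.5%). In the centre of V it was 28.7%. The order of these spans is a description of single lists, and their differences were not tested. How the series list was made is not stated, and where it shares reads with the replicate lists the overlap is no independent support for a site.

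**Figure D1:**
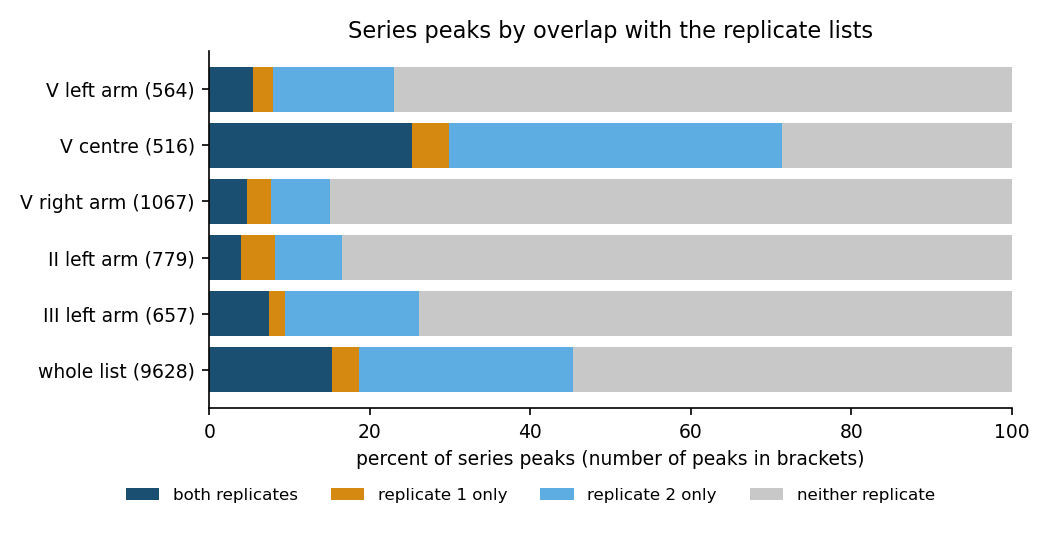
Percent of series peaks (horizontal axis) that overlapped a peak of both replicates, of 1 replicate only or of neither, by at least 1 bp, for the left arm, centre and right arm of V, 2 other left arms and all nuclear chromosomes, with the number of series peaks in brackets. The grey share without a replicate peak is 77.0% on the left arm of V and 28.7% in the centre of the same chromosome.

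The series peaks with and without a replicate peak differed in median width as well as score. For the 31 peaks with a counterpart in each replicate, the median width was 400 bp and the median percentile 77.3. The 85 found in replicate 2 alone were narrower, at 250 bp, with a median percentile of 64.2. The 14 found in replicate 1 alone were wide, at 1065.5 bp and percentile 63.1. The 434 found in neither had a median of 294 bp and percentile 30.3. The whole list showed the same order of classes in score and a similar one in width. Its medians were 369 bp and percentile 76.6 for both replicates, and 261 bp and 63.3 for replicate 2 alone. For replicate 1 alone they were 907 bp and 52.8, and for neither 353 bp and 36.5. By its length alone a wide peak can meet another more easily at 1 bp. The shares of peaks matched by either replicate did not rise steadily with width. They were 16.2% up to 200 bp and 30.1% over 200 and up to 400 bp. Over 400 and up to 1000 bp the share was 22.8%, and above 1000 bp it was 13.6%. Matches to replicate 1 alone numbered 1 of 136, 1 of 226, 5 of 136 and 7 of 66 in the same classes, from narrow to wide. The part of width in these classes was not tested.

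Within a width class, the peaks with a replicate counterpart stood higher in score. Among the 226 peaks over 200 and up to 400 bp wide, the 68 that met a replicate peak had a median percentile of 72.7 and the other 158 had 23.5. Among the 136 peaks over 400 and up to 1000 bp the medians were 72.4 and 47.6. Above 1000 bp they came close, at 78.6 and 74.9, and 9 of the 66 peaks of that width met a replicate peak. Of these 9, 7 met replicate 1 alone. High-scoring series peaks of the arm were thus of 2 kinds, narrow ones with a replicate peak and wide ones mostly without.

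**Figure D2:**
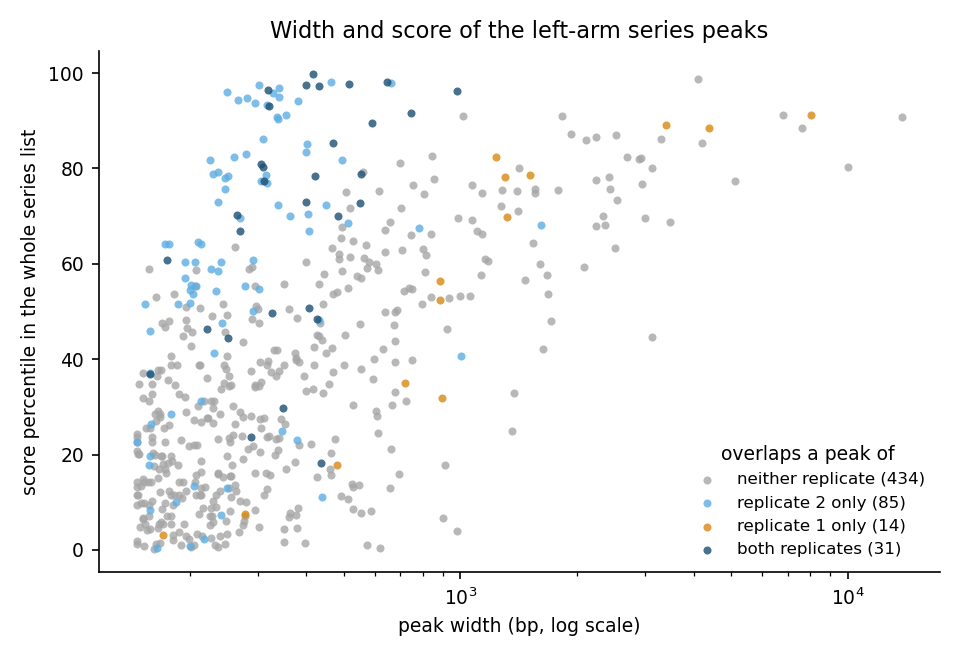
Width in bp (horizontal, log scale) against score percentile in the whole series list (vertical) for the 564 left-arm series peaks, one point per peak, coloured by the replicate lists it overlapped. Narrow peaks of high percentile are mostly blue, with a replicate counterpart, while wide peaks of high percentile are mostly grey, with none.

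The overlap of the arm was also lower than that of the rest of the list among peaks of like score. In the lowest-scoring 25% of the list, 19 of 204 arm peaks (9.31%, Wilson interval 6.04 to 14.1) met a peak of either replicate, against 24.1% (22.4 to 26.0) of the rest of the list. In the next 25% the shares were 11.6% (7.35 to 17.7) and 36.0% (34.1 to 38.0). In the one above they were 33.3% (25.7 to 41.9) and 54.1% (52.1 to 56.2). In the highest-scoring 25%, 52 of 87 arm peaks (59.8%, 49.3 to 69.4) met a replicate peak, against 71.2% (69.4 to 73.0). The intervals of the arm and the rest were apart in the 3 lower classes and touched near 69.4% in the highest. The rest of the list takes chromosome centres and other arms together, and no other arm was compared at like score. Neighbouring peaks are not independent, and no test was made of these differences.

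**Figure D3:**
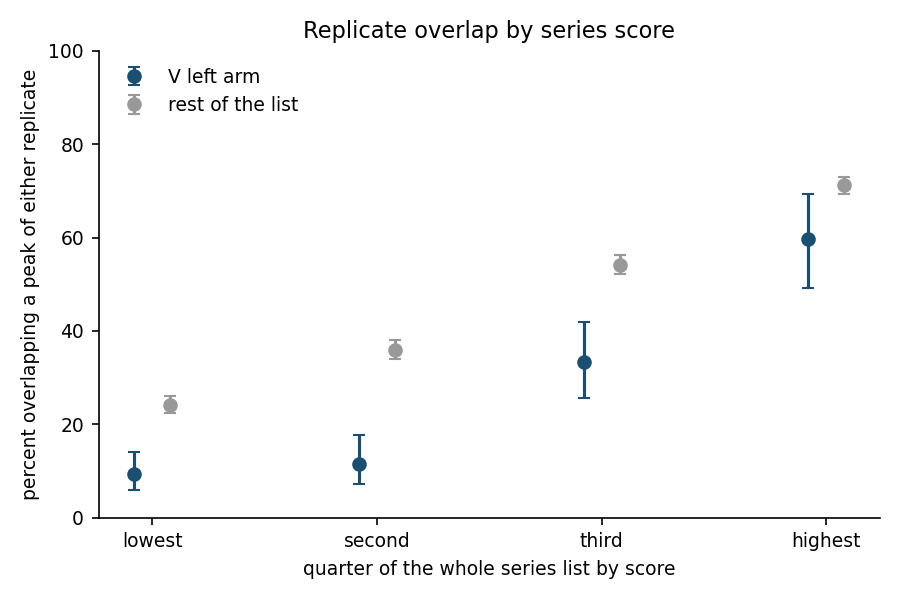
Percent of series peaks that overlapped a peak of either replicate (vertical), in 4 classes of equal size by score over the whole series list (horizontal), for the left arm of V and for the rest of the list. Bars are 95% Wilson intervals, which cover counting error only; the arm points rise from 9.31% to 59.8% and lie below the rest in each class.

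Width divided the highest-scoring class on the arm. Of its 53 peaks up to 1000 bp wide, 46 (86.8%, interval 75.2 to 93.5) met a replicate peak, and all 46 met one of replicate 2. Of its 34 wider peaks, 6 (17.6%, interval 8.35 to 33.5) did, all of them in replicate 1 and none in replicate 2. The rest of the list had 93.5% and 20.2% in the same classes. There 93.1% of the narrower peaks met replicate 2. Of its wider ones, 17.1% met replicate 1 and 9.39% replicate 2. The narrow, high-scoring peaks of the arm were mostly shared with replicate 2, and its wide ones seldom with either library.

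The 10 highest-scoring series peaks of the arm show this at single sites. Of the 10, 9 were up to 1000 bp wide and all 9 met a replicate 2 peak, ranked between 38 and 707 of 4580. A replicate 1 peak was met by 5 of them, ranked between 92 and 1815 of 2698. The first was V 1917981 to 1918395, 415 bp wide, with a series score of 117.85 (rank 28 of 9630). It was the only peak of the arm among the 100 highest of the list. Its replicate 2 peak ran from 1917877 to 1918539 with a score of 1627.61 (rank 112), and its replicate 1 peak from 1918030 to 1918378 with 151.01 (rank 958). The series interval lay inside the replicate 2 peak.

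The fourth, V 5049199 to 5049846 (series score 66.85, rank 182), was high in all lists. Its replicate 1 peak scored 869.38 (rank 92) and its replicate 2 peak 2405.61 (rank 38). It was the second-ranked peak of the arm in each replicate. The peak at V 1151079 to 1152057 was the other site ranked in the top 3 of the arm by both replicates, with 570.22 (rank 168) in replicate 1 and 1695.93 (rank 99) in replicate 2. Its series score was 50.84 (rank 362). The fifth-ranked replicate 1 peak of the arm, V 2777511 to 2778000 (376.04, rank 306), lay lower in both other lists, with 269.97 (rank 1987) in replicate 2 and 15.72 (rank 2584) in the series list.

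The second-ranked series peak had no replicate counterpart. It ran from V 1201805 to 1205904, was 4100 bp wide and scored 75.93 (rank 124). It had the 9th highest score of the 5266 series peaks, genome-wide, that met no replicate peak. Replicate 2 peaks lay on either side of it, at 1197026 to 1197811 (score 868.21, rank 458) and at 1206819 to 1207551 (score 913.14, rank 424). The group of close series peaks at this site had 7 members, and the one beside it at 1206832 to 1207491 was the fifth-ranked of the arm (63.31). In replicate 1 the only peak of the neighbourhood was at 1197249 to 1197564 (151.32, rank 957).

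Of the other peaks in the top 10, V 311288 to 311801 (series score 61.85), V 4194769 to 4195166 (58.93) and V 1871689 to 1872119 (57.39) met both replicates. Their replicate 2 ranks were 546, 433 and 291, and their best replicate 1 ranks 1815, 1407 and 592. V 2694380 to 2694842 (67.07), V 4731427 to 4731727 (58.21) and V 104495 to 104833 (53.94) met replicate 2 alone, at ranks 342, 707 and 683. All of these were 301 to 514 bp wide.

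Wide series peaks were a small class with much of the covered length. On the arm 44 peaks (7.80%) were wider than 1500 bp, where 9.28% of the list were, and they made up 42.7% of the summed width. In the right arm of V the shares were 23.7% of the peaks and 77.2% of the width. Of the 44, 39 met no replicate peak, 4 met replicate 1 and 1 met replicate 2. Their median percentile was 77.4, and 24 of them lay in the first 1 Mb of the chromosome. That 1 Mb held 43.4% of the arm's series peaks of all widths. Among peaks over 1000 bp wide, 13.6% met a replicate peak on the arm. In the rest of the list 17.6% to 28.0% of such peaks did, depending on the score class. For peaks over 1500 bp the share was not computed outside the arm.

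The 5 widest were V 316411 to 330186 (13776 bp, score 33.16, rank 892), V 2783102 to 2793144 (10043 bp, 20.65, rank 1896), V 790790 to 798852 (8063 bp, 34.15, rank 855), V 4302715 to 4310350 (7636 bp, 29.65, rank 1110) and V 5184605 to 5191426 (6822 bp, 34.73, rank 834). Only the one at 790790 met a replicate peak. It held 2 replicate 1 peaks, of which the higher, at 790862 to 791355, scored 118.98 (rank 1205), and none of replicate 2.

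Series peaks of the arm lay closer together than those of the centre of V and farther apart than those of the right arm. The median gap from the end of one peak to the start of the next was 1028 bp (quartiles 229.5 and 8582.5), against 1758 bp in the whole list, 7184 bp in the centre of V and 437.5 bp in the right arm. Of the 563 gaps, 337 (59.9%) were shorter than 2000 bp, against 51.4% in the whole list, 31.8% in the centre and 76.5% in the right arm. On the left arms of II, III and IV the shares were 73.9%, 67.2% and 58.7%. Replicate peaks lay far apart, with median gaps of 35614 bp in replicate 1 and 28137.5 bp in replicate 2. The longest stretch without a series peak ran from V 3796217 to 3914899, or 118683 bp. No replicate peak lay wholly inside it, and a replicate 1 peak at 3914818 to 3915232 reached into its right edge. The next, from 2877710 to 2991901 (114192 bp), held 2 whole peaks of replicate 1, and a replicate 2 peak at 2877340 to 2877815 reached into its left edge.

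**Figure D4:**
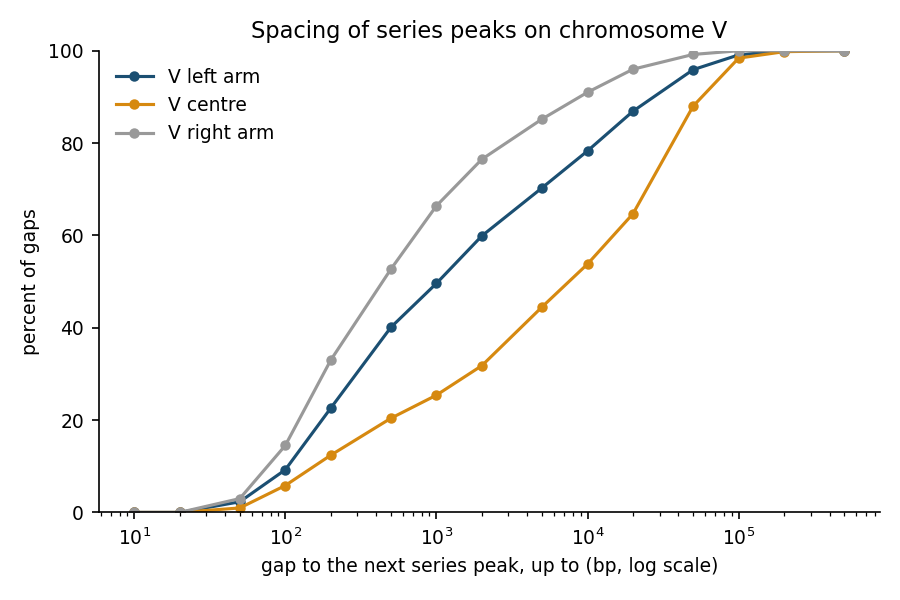
Cumulative percent of gaps between neighbouring series peaks (vertical) up to a given length in bp (horizontal, log scale) for the left arm, centre and right arm of V. At 2000 bp the left arm stands at 59.9%, between the centre at 31.8% and the right arm at 76.5%.

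Joining series peaks less than 2000 bp apart left 227 groups. Single peaks made up 117 of them, and 51 of these 117 (43.6%) met no replicate peak. In groups of 2 to 4 peaks the share without a replicate peak was 78.6% (165 of 210 peaks), in those of 5 to 9 it was 88.7% (134 of 151), and in the 6 groups of 10 or more it was 97.7% (84 of 86). Peaks standing alone were thus matched more often than crowded ones on the arm. Shares by group size were not computed for the whole list or other spans, so this may be general. After joining, the arm had 43.4 groups per Mb, all nuclear chromosomes 46.7 and the centre of V 33.7. Between the arm and the centre this was a smaller difference than between the peak counts.

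The largest group ran from V 416423 to 449091. It held 24 series peaks over 32669 bp, covering 69.5% of that length, and no replicate peak. Their scores ran from 3.24 to 27.8, and the best was at 446856 to 448781 (rank 1237). The widest member was 5117 bp, at 431602 to 436718, with a score of 18.24. Other groups of 12 to 14 peaks lay at 517811 to 533918, 661004 to 678595 and 397885 to 413157, so that 4 of the 5 largest lay within a stretch from 397885 to 678595. The fifth was at 3554950 to 3566321, with 12 peaks and 1 replicate 1 peak.

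Along the arm the series peaks were uneven, and the replicate peaks did not follow them. In 10 full bins of 500 kb the series density ranged from 44.0 to 312.0 per Mb, a ratio of 7.09, with a median of 80.0. The densest bin was V 500001 to 1000000 with 156 series peaks, followed by the bin from the left end to 500000 with 89. The first 2 bins held 245 series peaks, 43.4% of the arm's total in 19.1% of its length. The same 1 Mb held 12 of the 89 replicate 1 peaks (13.5%) and 27 of the 121 replicate 2 peaks (22.3%). The sparsest bin followed directly, from 1000001 to 1500000, with 22 series peaks but 11 replicate 1 and 13 replicate 2 peaks.

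Beyond the first 1 Mb the density was 75.4 series peaks per Mb. There 220 of 319 series peaks (69.0%) met no replicate peak, against 214 of 245 (87.3%) in the first 1 Mb. Without the densest bin, a repeat chosen after the data were seen, the arm had 86.3 series peaks per Mb and 71.6% met neither replicate. The bin from 3000001 to 3500000 had the highest share without a replicate peak, 54 of 57 (94.7%), and the lowest median percentile, 21.9. It also had the fewest replicate peaks, 3 and 4. The bin from 4000001 to 4500000 had the lowest share, 10 of 24 (41.7%), with 8 replicate 1 and 12 replicate 2 peaks.

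**Figure D5:**
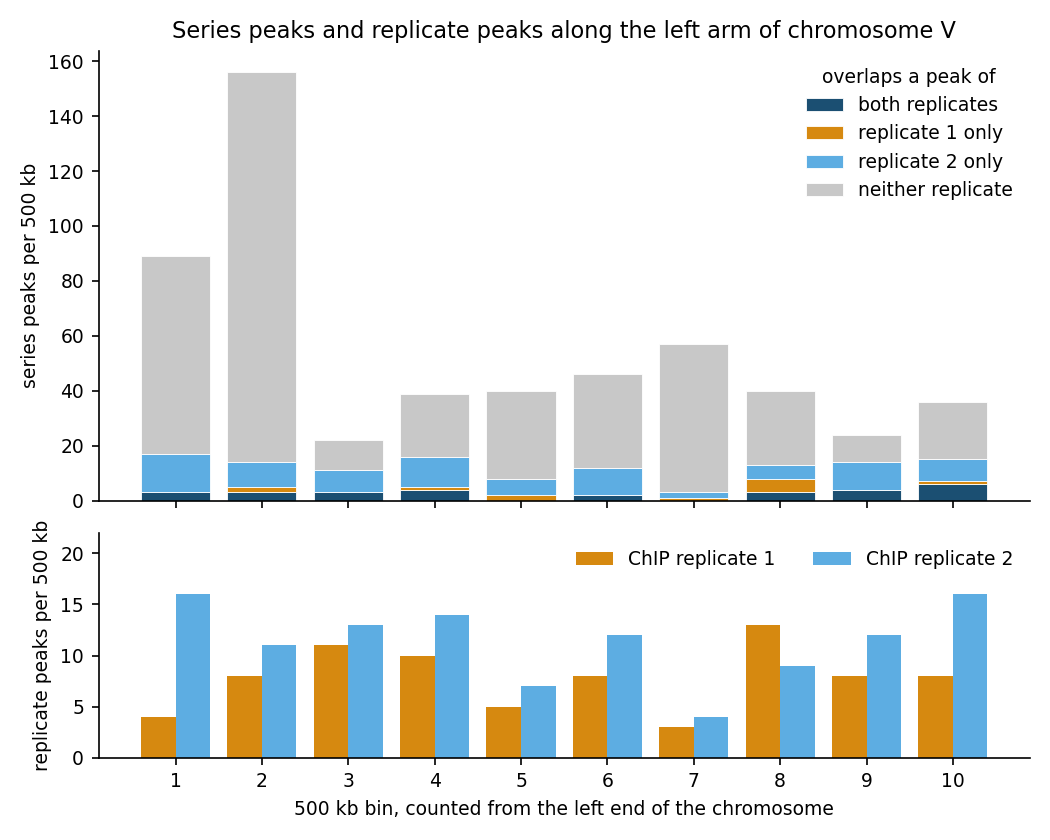
Number of series peaks in each full 500 kb bin of the left arm (top, stacked by the replicate lists they overlapped) and number of peaks of each ChIP replicate in the same bins (bottom); bins are counted from the left end, and the last 230 kb of the arm are left out. The series bars of bins 1 and 2 reach 89 and 156, while the replicate bars stay between 3 and 16 in all bins.

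At the inner limit of the arm the peaks just inside and just outside were alike. The last inside was V 5204222 to 5204425 (score 8.83, rank 4436) and the first outside V 5269091 to 5269292 (8.44, rank 4642). Each met a replicate 2 peak only, of score 144.96 and 106.14. At the outer end, the first series peak was V 8152 to 8310 (4.76, rank 7082). A replicate 2 peak from 8069 to 9421 (1159.01, rank 249) covered it together with the next series peak, 8543 to 9287 (35.28, rank 805). That second peak also met a replicate 1 peak at 8615 to 9336 (288.7, rank 425).

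Seen from the replicates, most replicate 2 peaks of the arm had a series peak and fewer replicate 1 peaks did. The count was 106 of 121 in replicate 2 (87.6%, interval 80.6 to 92.3), where 83.0% of the whole replicate 2 list had one. In replicate 1 it was 48 of 89 (53.9%, interval 43.6 to 63.9), against 65.2% of its list. In the centre of V the shares were 75.6% and 60.1%. The series intervals were mostly nested in replicate 2 peaks. Of 116 overlapping pairs, 102 (87.9%) had the series peak wholly inside, and the midpoints were a median of 26.2 bp apart. Against replicate 1 only 5 of 50 pairs were so nested, and the median distance was 84.5 bp. The widths differed too. The series peak was a median of 0.582 times as wide as its replicate 2 peak and 1.64 times as wide as its replicate 1 peak. A peak wider than its partner cannot lie inside it. Nesting was not computed for the whole list or other spans.

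The replicates shared little on this arm. Of the 89 replicate 1 peaks 36 (40.4%, interval 30.9 to 50.8) met a replicate 2 peak, where 62.5% of the replicate 1 list did. In the centre of V 60.5% did, in the right arm 43.5%, and on the left arms of II and III 35.4% and 68.9%. In the other direction 34 of 121 replicate 2 peaks (28.1%, interval 20.9 to 36.7) met a replicate 1 peak, against 34.9% of that list. Replicate 1 peaks of the arm had a median width of 357 bp, against 420 bp in its whole list, and a median percentile of 41.2. Replicate 2 peaks had a median width of 504 bp, against 538 bp, and stood at percentile 50.0.

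Scores of matching peaks were related more closely between the series list and replicate 2 than between it and replicate 1. Between the replicates the coefficients were lower still, but over a different set of sites. Across the 116 pairs with replicate 2, Spearman's rho was 0.56 and Pearson's r of log10 scores 0.52. At a 50% reciprocal overlap both were 0.82 over 82 pairs. Across the 50 pairs with replicate 1, rho was 0.37 and r 0.39, and at a 50% reciprocal overlap they were 0.49 and 0.5 over 28 pairs. Across the 36 pairs between the replicates, rho was 0.16 and r 0.06, and at a 50% reciprocal overlap they were 0.23 and 0.05 over 20 pairs. The 36 pairs include 4 places without a series peak, which cannot occur in the pairs with the series list. One of these places, at V 3434572, scored 2914.98 in replicate 1 and 52.37 in replicate 2. Coefficients without such places were not computed. These are correlations over peaks of shared libraries and are given as descriptions only.

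Merging all peaks of the 3 lists that overlapped gave 605 places on the arm. Of these, 434 (71.7%) were in the series list alone, 76 (12.6%) in the series list and replicate 2, and 13 (2.15%) in the series list and replicate 1. A further 30 (4.96%) were in all lists, 37 (6.12%) in replicate 1 alone and 11 (1.82%) in replicate 2 alone. In 4 places both replicates had a peak and the series list had none.

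Those 4 places include the strongest replicate 1 peak of the arm. At V 3434572 to 3441153 replicate 1 had a peak of 6582 bp with a score of 2914.98, rank 6 of 2698. Replicate 2 called nearly the same interval, 3434535 to 3441178, whose edges lay 37 and 25 bp outside. Its score there was 52.37, rank 4524 of 4580. The nearest series peak was 22430 bp from the replicate 2 interval. The 2 libraries therefore placed this wide interval alike and ranked it at opposite ends of their lists.

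The same contrast, less marked, held at the left tip. Replicate 1 had a peak at V 1 to 400 scoring 466.24 (rank 227 of 2698), and replicate 2 one at 1 to 407 scoring 93.58 (rank 3680 of 4580). The remaining 2 places were V 1153808 to 1154380 in replicate 1 (140.46, rank 1031; replicate 2 226.93, rank 2258) and V 4647822 to 4648272 (81.0, rank 1694; replicate 2 50.42, rank 4569). The first of these lies 1751 bp from the nearest series peak, beside the strong site at 1151079.

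Strong replicate peaks were defined as the top 10% of a replicate's whole list by score. On the arm they made up 4.49% of the replicate 1 peaks and 8.26% of the replicate 2 peaks. Replicate 1 had 4, of which 2 had no series peak, the interval at 3434572 and the left tip. In its whole list 16.0% of such peaks had none, and a count of 4 gives a Wilson interval of 15.0 to 85.0%. Replicate 2 had 10, and all had a series peak, as did all 458 of its list (0.0% without). A count of 0 in 10 allows a share of up to 27.8% by the same interval. In the top 25%, 4 of 13 replicate 1 peaks had no series peak, against 16.5% of the list. The additional ones were V 1371202 to 1371430 (252.08, rank 529) and V 4367637 to 4367879 (210.64, rank 653), both 229 to 243 bp wide and in neither other list. In replicate 2 none of 26 lacked a series peak, against 0.175% of the list.

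The strongest replicate 2 peak of the arm met several series peaks, none of them among the highest-scoring 25% of the list. It ran from V 4333156 to 4336713, 3558 bp wide, with a score of 2578.09 (rank 31), and replicate 1 had no peak there. The series list divided it into 4 peaks scoring 15.33, 3.43, 13.27 and 4.39, at percentiles 72.4, 13.3, 68.1 and 23.0, the best of them at rank 2658 of 9630. It was the replicate 2 peak of the arm with the most series peaks in it. Of the 106 replicate 2 peaks with a series peak, 7 held 2 or more.

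The 37 replicate 1 peaks found in no other list were low, with a median percentile of 27.9, and partly in runs. When those less than 10000 bp apart were joined, 14 of the 37 fell into 4 runs of 3 or 4. The runs lay at V 1254993 to 1262401, 1891269 to 1908408, 5004092 to 5010711 and 5158654 to 5164664. The other 23 stood alone. This distance is longer than the 2000 bp used to join series peaks. Runs were not counted for the other replicate 1 peaks or for other spans, so they may be general. The 15 replicate 2 peaks without a series peak were low as well, 13 of them at or below percentile 31.6. The other 2 were at 1153615 to 1154416, named above, and at 5073205 to 5076866 (3662 bp, score 224.17, rank 2273).

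Series peaks without a replicate counterpart mostly lay well away from any replicate peak. The nearest peak of either replicate was a median of 15022 bp away (quartiles 4730.5 and 31342.75, highest 90066). Of the 434, 28 (6.45%) lay within 1000 bp of one and 161 (37.1%) within 10000 bp. Replicate peaks were themselves sparse on the arm, with median gaps of 35614 bp in replicate 1 and 28137.5 bp in replicate 2. The same distance was not computed for other places of the arm or for other spans. Replicate 1 peaks without a series peak lay a median of 7246 bp from the nearest one, and those of replicate 2 a median of 7722 bp.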

How the data were processed

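The data were 3 peak lists. Per the file headers, coordinates are of WormBase WS220; the source columns name MACS for the ChIP replicate lists and MACS v2 for the list of the whole series. BWA and ce10 are named in the submitters' processing notes. For thresholds, controls and any pooling behind the series list, the settings were not given in the sources used here. The score of each peak is the authors' deposited value, on no stated scale, and was used only for ranks and percentiles within a list and for correlations. Library depth is unknown.

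Overlaps, widths, gaps and densities were computed with pandas 2.3.3, scipy 1.17.1 and numpy 2.4.6 under Python 3.11.15, and plotted with matplotlib 3.10.9. The interval helpers were tested on simulated data. Chromosome lengths were taken as the largest peak coordinate of the 3 lists, and arms other than the left arm of V as the outer 25% of each chromosome. Percentiles use midranks. Shares have 95% Wilson intervals. No hypothesis test was run, because 2 ChIP libraries without a contrast allow none.

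Named regions are the 10 highest-scoring and 5 widest series peaks of the arm, the peaks at its limits, the 5 highest peaks of each replicate, strong replicate peaks without a series peak, and the densest and sparsest bins. Other regions were named after their values were seen. The span and these rules were chosen with earlier results of these data known. Gene annotation of WBcel235 was at hand but is another assembly, so it was not used with these coordinates.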

Additional observations from a re-analysis of the deposited data

How the results depend on the processing

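Of 44 alternative values over 13 results, 19 stayed within the interval of the reported value, or within 1.5 times for densities and counts, and 25 did not. With the boundary at 4200000 all 11 values stayed within those limits. In the higher-scoring 50% of the series list the density was 40.7 per Mb, the median width 517 bp and the median gap 8767.5 bp. The share of series peaks in replicate 1 was then 15.0%, in replicate 2 39.9%, in both 10.8% and in neither 55.9%, and 40.4% of replicate 1 and 68.6% of replicate 2 peaks had a series peak. Joining series peaks under 2000 bp apart gave 43.4 per Mb, a median width of 813 bp and a median gap of 12082.5 bp. Where overlap had to reach 50% of both peaks, 4.96% of series peaks were in replicate 1, 14.5% in replicate 2, 3.55% in both and 84.0% in neither. Likewise 31.5% of replicate 1 and 67.8% of replicate 2 peaks had a series peak, 22.5% of replicate 1 peaks were in replicate 2, and 2 of 10 strong replicate 2 peaks had no series peak. In the top 25% in place of the top 10%, 4 strong replicate 1 peaks had none. Without the densest 500 kb, an alternative added after the data were seen, the median gap was 1469 bp, 25.5% of series peaks were in replicate 2 and 71.6% in neither. With 1 replicate left out, the share in neither was 79.4% (without replicate 1) and 92.0% (without replicate 2). Restricting the series list by score does not bear on the overlap between the replicates and was not run for it. No paired analysis was possible because the input libraries carry no values here and no test was made.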
